A study of Saccharomyces cerevisiae with 109 samples.

Results

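Expression in yeast lacking RCO1 was followed on 7 arrays of cells exposed to H2O2 and set against 12 arrays of wild-type cells under the same treatment, out of 109 arrays in the series. Members were taken by strain, stress and time as labelled. The rco1Δ arrays form a course of 10, 20, 30, 40 and 60 min plus separate 30 min samples, which gave 3 arrays at 30 min against 8 of wild type. The array of each course at 30 min is called replicate 1. The strains compared here are BY4741 (mating type a, his3Δ1 leu2Δ0 met15Δ0 ura3Δ0), and rco1Δ is the haploid deletion strain of the commercial collection, in which a KANMX cassette replaces the gene. Cells received 0.4 mM H2O2 in rich medium. Every H2O2 array compared stressed with unstressed cells of one strain, so a value is a log2 ratio of stressed over unstressed RNA: 1 unit is a 2-fold change. A strain difference below is therefore a difference in response, and the unstressed level of rco1Δ against wild type was not analysed here. Outside H2O2, 16 pairs of rpd3Δ and wild-type arrays in heat shock and NaCl were also used, read in the same way. Arrays of unstressed rpd3Δ over unstressed wild-type cells were used too, and there a value is a ratio between strains.

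The deacetylase Rpd3p works in a large and a small complex. Pho23p belongs to the large one, Rpd3L, which is known for repressing genes from their promoters. The small one, Rpd3S, which contains Rco1p and Eaf3p, binds nucleosomes in transcribed genes that carry the Set2p methyl mark on histone H3, and is known for keeping internal start sites silent. Oxidative stress induces the genes of the environmental stress response (iESR genes) and represses genes for protein synthesis (PS genes) and ribosomal proteins (RP genes). Arrays of pho23Δ and rpd3Δ cells, 7 of each with 3 at 30 min, served as references for the loss of a subunit of Rpd3L and of the deacetylase itself. The study raises the possibility that Rpd3L works in part without Pho23p. An array spot sums all RNA that binds it, so full-length and shorter transcripts of a gene cannot be told apart.

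Between 5023 and 5923 of 6297 genes had a value on each wild-type or rco1Δ array. RCO1 itself had a value on 4 of 7 rco1Δ arrays, from -1.2 to -0.35, and on 11 of 12 wild-type arrays, from -0.37 to 0.55. A ratio within one strain says little about the deletion, because both channels lack the gene. Of the auxotrophic markers, HIS3 had values on all 19 arrays, LEU2 on 3 of 12 wild-type and 1 of 7 rco1Δ arrays, and URA3 on 3 of 12 and 5 of 7. The wild-type course had stressed RNA in channel 1 and the rco1Δ course in channel 2, so dye and strain are confounded at every time but 30 min, where both orientations occur in both strains. At 30 min, arrays of opposite orientation correlated at r = 0.79 to 0.96 across genes (24 pairs) and arrays of like orientation at 0.731 to 0.964 (31 pairs), and no array was turned. Some of the 30 min arrays resembled an earlier time. Replicate 1 of rco1Δ correlated better with the wild-type course at 20 min (r = 0.901 across genes) than at 30 min (0.828), and wild-type replicate 8 also had its highest correlation with the 20 min array (0.902). So did wild-type replicate 2, by less (0.935 against 0.921 at 30 min), and leaving it out gave 28 calls in the comparison of 30 min below in place of 29. The separate rco1Δ arrays, replicates 2 and 3, were closest to the wild-type course at 30 min (0.930 and 0.940). Nothing in the labels says that replicates came from separate colonies, so the p-values measure the spread between these samples.

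At 30 min the response of rco1Δ cells was large. By limma, 1241 of 5173 genes rose and 1265 fell at a false discovery rate (FDR) of 0.01, 48.4% of the genes tested. The same fit called 67.7% of genes in wild type (34.4% risen and 33.2% fallen), with more arrays, 29.7% in pho23Δ and 31.5% in rpd3Δ. Against wild type, rco1Δ differed at 29 genes at FDR 0.05, 0.561% of those tested. Of these, 23 were higher in rco1Δ (0.445%) and 6 were lower (0.116%), and 444 genes had an unadjusted p under 0.05. For comparison, 17.8% of genes were called for pho23Δ against the same wild-type arrays (9.67% higher and 8.1% lower) and 22.9% for rpd3Δ (13.6% higher and 9.32% lower). The rco1Δ count depended on single libraries: it was 7 without rco1Δ replicate 2, 10 without rco1Δ replicate 1, 14 without rco1Δ replicate 3, 16 to 18 without any one of wild-type replicates 1, 4, 5, 6 or 7, and 43 without wild-type replicate 8.

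**Figure D1:**
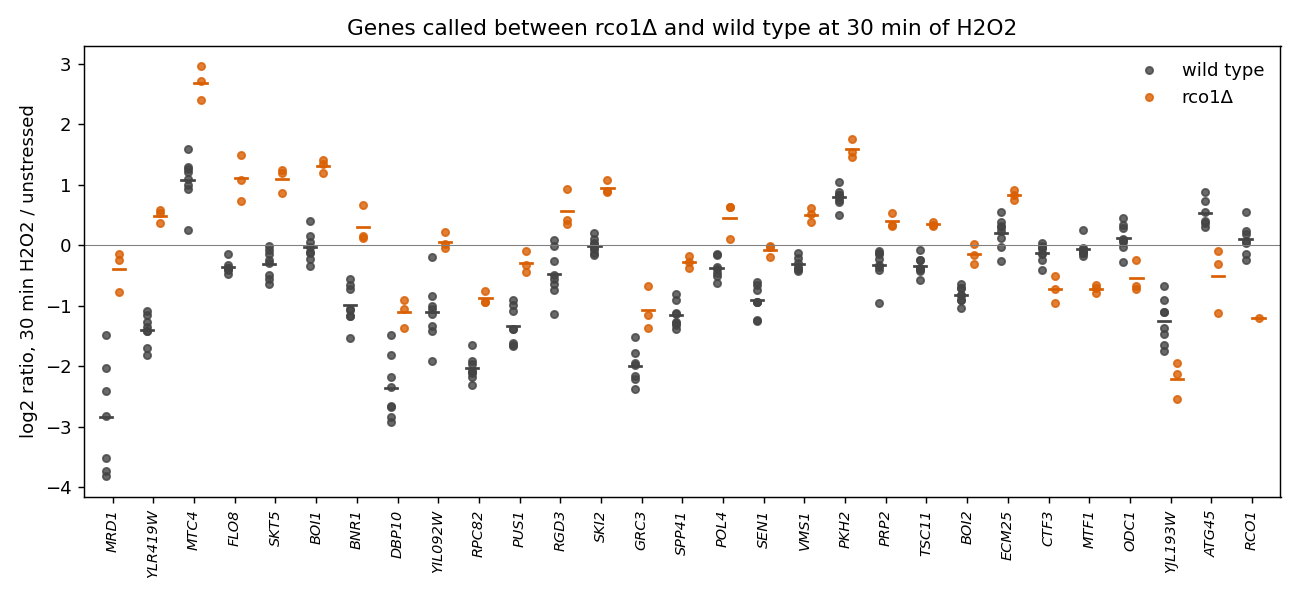
Log2 ratio of stressed over unstressed RNA on each 30 min array for the 29 genes that differed between rco1Δ and wild type (limma, FDR 0.05). Points are single arrays, 8 of wild type and 3 of rco1Δ, and all 23 genes called higher lie clear of the wild-type points.

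The 23 genes called higher had no overlap between their rco1Δ and wild-type arrays. Over all genes tested, 114 had every rco1Δ array above every wild-type array (2.20%). The 23 genes had a median difference of 1.04, from 0.62 to 2.44. In wild type 20 of them had a mean below 0 and 18 were called as fallen, with a median response of -0.47, while their median response in rco1Δ was 0.40. For 8 genes every measured wild-type array was below 0 and every rco1Δ array above 0. Over all genes tested, 17 had that pattern (0.329%). The 8 called genes were YLR419W, FLO8, SKT5, BNR1, POL4, VMS1, TSC11 and PRP2. All 8 were called as fallen in wild type (limma, FDR 0.01). In rco1Δ, FLO8, SKT5 and VMS1 were called as risen and the other 5 passed in neither direction.

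FLO8 (YER109C), a transcription factor for flocculation and filamentous growth, is a gene of that kind. Its wild-type values ranged from -0.47 to -0.15 with a median of -0.37 on 7 arrays. The rco1Δ arrays read 1.08, 1.5 and 0.74. The 2 groups did not overlap, and the difference was 1.46 ± 0.21 (SE; limma adjusted p = 0.000439). YLR419W, a reading frame with no gene symbol in the name table, had wild-type values of -1.82 to -1.09 with a median of -1.38. Its rco1Δ values were 0.37, 0.53 and 0.58, a difference of 1.89 ± 0.30 (limma adjusted p = 0.00126). A wild-type decrease on every array was thus replaced by a small increase on every rco1Δ array.

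SKT5 (YBL061C), the activator of chitin synthase III, had wild-type values of -0.64 to -0.01 with a median of -0.27, and rco1Δ values of 0.87, 1.2 and 1.24. Its difference was 1.41 ± 0.17 (SE; limma adjusted p = 2.99e-05). BOI1 (YBL085W), which acts in bud growth, was on both sides of 0 in wild type, at -0.34 to 0.40 with a median of -0.07. It read 1.35, 1.19 and 1.42 in rco1Δ, 1.34 ± 0.19 higher (limma adjusted p = 0.000208). Its paralogue BOI2 had a wild-type median of -0.82 and rco1Δ values of -0.30, 0.02 and -0.16, 0.67 ± 0.13 higher (limma adjusted p = 0.00791). The pair share sequence and may share signal on the array. BNR1, a formin that assembles actin cables, was between -1.53 and -0.56 in wild type and 0.15, 0.66 and 0.12 in rco1Δ. TSC11, a subunit of the TORC2 kinase complex, was between -0.57 and -0.07 in wild type and 0.32, 0.39 and 0.33 in rco1Δ. PKH2, a protein kinase, rose in both strains, to between 0.50 and 1.04 in wild type and to 1.76, 1.55 and 1.46 in rco1Δ.

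MTC4 (YBR255W) also rose in both strains. Wild-type values lay between 0.26 and 1.60 with a median of 1.16, and rco1Δ values were 2.96, 2.72 and 2.40. The difference was 1.61 ± 0.24 (SE; limma adjusted p = 0.000439). It was the one gene called among the 69 tested members of the oxidative defense cluster of the study, whose median difference was 0.21.

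MRD1 (YPR112C), a factor of small ribosomal subunit assembly, fell in wild type to between -3.82 and -1.49 with a median of -2.83 on 7 arrays. In rco1Δ it read -0.14, -0.25 and -0.77, a difference of 2.44 ± 0.42 (SE; limma adjusted p = 0.00278), the largest among the genes called. DBP10, a helicase of large subunit assembly, read -0.90, -1.06 and -1.36 in rco1Δ against -2.92 to -1.49 in wild type. RPC82, a subunit of RNA polymerase III, read -0.93, -0.93 and -0.75 against -2.31 to -1.64. PUS1, a tRNA pseudouridine synthase, read -0.33, -0.09 and -0.44 against -1.66 to -0.91. DBP10 and RPC82 were called as fallen in both strains (limma, FDR 0.01), by less in rco1Δ, while MRD1 and PUS1 were called as fallen in wild type only, with adjusted p = 0.35 and 0.19 for their response in rco1Δ.

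GRC3, a polynucleotide kinase of rRNA processing, fell to -0.68, -1.37 and -1.16 in rco1Δ against -2.38 to -1.51 in wild type. SKI2 (YLR398C), the helicase of the Ski complex that feeds mRNA to the exosome, hardly moved in wild type, at -0.16 to 0.20 with a median of -0.01. It read 0.88, 1.08 and 0.90 in rco1Δ, 0.96 ± 0.16 higher (limma adjusted p = 0.00168). SEN1, a helicase of transcription termination, had a wild-type range of -1.25 to -0.60 and rco1Δ values of -0.19, -0.03 and -0.01. PRP2, a splicing ATPase, had a range of -0.96 to -0.10 and rco1Δ values of 0.54, 0.32 and 0.34. The remaining genes called higher were YIL092W, RGD3, SPP41, POL4 (a DNA polymerase of end joining), VMS1 (a partner of Cdc48p) and ECM25, with differences of 0.62 to 1.17.

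Besides RCO1, 5 genes were lower in rco1Δ. ATG45 (YIL024C) was between 0.31 and 0.89 on 6 wild-type arrays and -1.12, -0.31 and -0.09 in rco1Δ, a change of sign, with a difference of -1.05 ± 0.21 (SE; limma adjusted p = 0.0151). YJL193W fell further in rco1Δ, to -2.54, -2.13 and -1.95, than in wild type, where it ranged from -1.74 to -0.68. MTF1, the specificity factor of mitochondrial RNA polymerase, ranged from -0.18 to 0.26 in wild type and read -0.71, -0.79 and -0.66 in rco1Δ. CTF3, a kinetochore protein, read -0.51, -0.95 and -0.72 against -0.40 to 0.04. ODC1, a mitochondrial carrier, read -0.72, -0.67 and -0.25 against -0.27 to 0.46, and was the one gene of the 29 whose groups overlapped. RCO1 was measured on 1 rco1Δ array at 30 min, at -1.2. Both channels of that array lack the gene, so the call of RCO1 is not a difference in its response. None of the 6 genes was called under FDR 0.01.

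Calls varied in how they held up under up to 20 alternative settings. BOI1 and SKT5 passed FDR 0.05 in all 20, and FLO8 and MTC4 in all 19 in which they were tested. MRD1 and YLR419W passed in 18 of 19, BNR1 in 17 of 20 and SKI2 in 17 of 19. At the other end, 13 of the 29 genes passed in under 50% of their settings: DBP10 and PRP2 in 2 of 19, ECM25, RGD3 and YJL193W in 3 of 19, SPP41 in 3 of 20, CTF3, GRC3, SEN1 and TSC11 in 4 of 19, RCO1 in 4 of 15, POL4 in 8 of 19 and ODC1 in 9 of 19. No estimate of the 29 genes changed sign.

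Rpd3S acts over gene bodies, so the differences were set against gene length, taken from the reference annotation for 5076 of the genes tested (98.1%). All 23 genes called higher were at least 1635 bp long. Their median length was 2631 bp and the longest, SEN1, was 6696 bp. The median of all genes tested was 1272 bp, and 35.0% were at least 1635 bp long. Genes called as fallen in wild type, from which most of the 23 came, were of ordinary length, with a median of 1290 bp and 36.8% at or above 1635 bp. The 6 genes called lower had a median of 1117.5 bp.

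In 5 equal groups by length, the calls of higher genes were 0, 0, 0, 9 and 14 from the shortest to the longest group, and the calls of lower genes were 1, 2, 1, 1 and 1. The median rco1Δ minus wild-type difference varied little, at -0.03, 0.00, -0.01, -0.01 and 0.04. The upper tail varied more. A difference above 0.5 was found for 4.80, 6.21, 8.55, 7.23 and 11.9% of genes, in the same order. The shortest group spans 78 to 699 bp and the longest 2199 to 12884 bp. For a difference below -0.5 the shares were 3.92, 3.94, 4.72, 6.64 and 3.35%. The 63 unnamed frames described at the end, of 1317, 1323, 5269 and 5314 bp, fall in the middle and the longest groups. Their median difference was 0.57, and the tails without them were not computed. The median SE was 0.24 in the shortest and in the longest group. The direct comparison with pho23Δ had a median of -0.01 in the shortest group and 0.09 in the longest. Its difference uses no wild-type array, but wild-type arrays enter the spread and the gene filter behind its calls. There, 30 of the 1020 shortest genes were called higher in rco1Δ and 56 lower, against 42 and 16 of the 1015 longest. Over all genes 3.25% were called higher and 4.54% lower. The direct comparison with rpd3Δ ran the other way, with medians of 0.07 and -0.06. In it 59 of the shortest genes were called higher and 77 lower, and 28 and 66 of the longest. Over all genes 4.62% were called higher than in rpd3Δ and 8.12% lower. In the comparison of pho23Δ with wild type the shortest and the longest groups had medians of -0.02 and -0.04, and in that of rpd3Δ with wild type they had -0.07 and 0.11. These comparisons share the wild-type arrays.

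**Figure D2:**
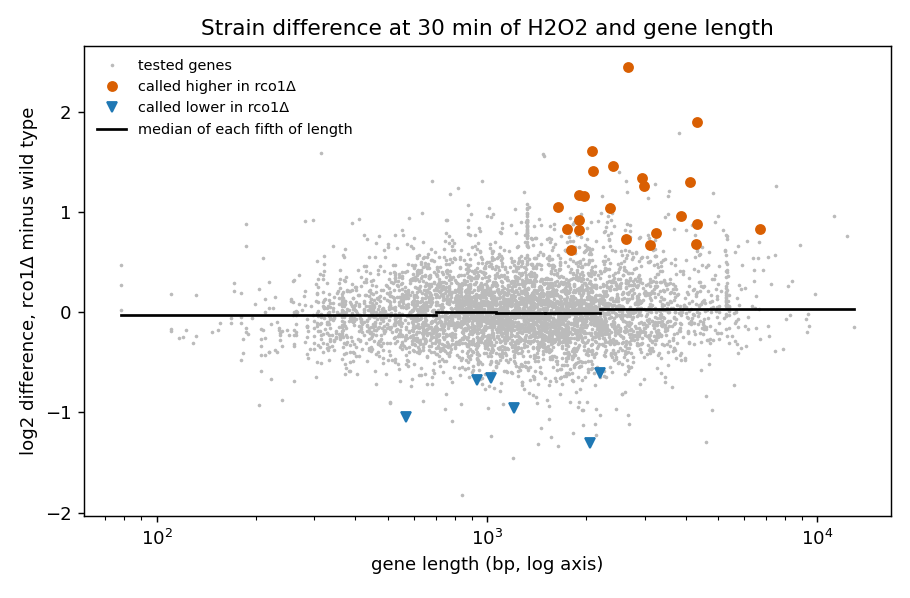
Gene length (log axis, bp) against the rco1Δ minus wild-type difference at 30 min (log2) for the genes tested that have a length, with the genes called higher and lower marked. The genes called higher all lie at 1635 bp or more.

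The 23 genes were then read in comparisons whose differences use neither the rco1Δ nor the wild-type arrays in H2O2. Between rpd3Δ and pho23Δ at 30 min, whose arrays entered the spread and the gene filter of the fit that chose the genes but not the difference itself, 22 of 23 genes were higher in rpd3Δ, with a median of 0.49 beside 0.06 over all genes. None passed FDR 0.05 singly, where 0.116% of all genes did (0.0387% higher and 0.0773% lower), and the genes share their libraries. In heat shock and NaCl, where rpd3Δ and wild type were compared over 16 pairs of arrays that were not in that fit, 19 of the 23 had enough values. Their median rpd3Δ minus wild-type difference was 0.39 beside -0.01 over all genes, and 10 were called higher and 0 lower by limma at FDR 0.05 (52.6% of the 19, beside 16.4% of all genes called higher and 35.2% called in either direction). Of the 688 genes called higher there over all genes, 664 had a wild-type mean below 0 in these stresses. Most of the 23 genes also fell in wild type, in H2O2, and the share called among repressed genes alone was not computed. In unstressed cells, the ratio of rpd3Δ over wild type had a median of 0.10 for the 23 genes beside -0.01 for all, and 16 of 23 were above 0.

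Against the wild-type arrays that also chose them, the 23 genes had a median difference of 0.92 in rpd3Δ and of 0.41 in pho23Δ. Genes differed in this. BOI1 was at 0.43 in rpd3Δ and -0.53 in pho23Δ, and MTC4 at 1.42 and 0.07. SKI2 was at 0.48 and -0.02, and SEN1 at 0.89 and 0.03. For ribosome assembly genes both mutants were high: MRD1 was at 3.08 in rpd3Δ and 1.76 in pho23Δ, DBP10 at 2.09 and 1.45, and GRC3 at 1.98 and 1.76. Of the 23 genes, 5 belong to the PS list (21.7%), as do 7.66% of all genes tested.

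Set directly against pho23Δ at 30 min, rco1Δ differed at 403 of 5172 genes (7.79%), 168 higher (3.25%) and 235 lower (4.54%). Among the 23 genes, 8 were called higher in rco1Δ than in pho23Δ and 1, GRC3, lower. BOI1 read -0.69, -0.34 and -0.64 in pho23Δ, where rco1Δ read 1.35, 1.19 and 1.42, a difference of 1.87 ± 0.23 (SE; limma adjusted p = 2.48e-05). MTC4 read 1.27, 1.40 and 0.78 in pho23Δ, 1.54 ± 0.29 below rco1Δ (limma adjusted p = 0.00245). FLO8 read 0.10 and -0.30 on its 2 pho23Δ arrays, and the difference was 1.2 ± 0.28 (limma adjusted p = 0.00965). SKI2, at 0.30, -0.12 and -0.27 in pho23Δ, differed by 0.98 ± 0.19 (limma adjusted p = 0.00333). SKT5, PKH2, SEN1 and BOI2 were the other genes called higher. Of the genes called lower against wild type, MTF1 read 0.65, 0.64 and 0.46 in pho23Δ, where rco1Δ read -0.71, -0.79 and -0.66. The rco1Δ arrays that chose these genes are common to both comparisons.

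The direct comparison with rpd3Δ gave 659 genes (12.7%), 239 higher in rco1Δ (4.62%) and 420 lower (8.12%). Among the 23 genes, BOI1 alone was higher in rco1Δ, by 0.91 (limma adjusted p = 0.00807), and GRC3 alone was lower, by -1.06 (limma adjusted p = 0.00712). Their median rco1Δ minus rpd3Δ difference was 0.08. The count against pho23Δ was 129 and 234 without pho23Δ replicates 1 and 2, and 211 and 185 without rco1Δ replicates 2 and 3. That against rpd3Δ was 336 and 378 without rpd3Δ replicates 2 and 3, and 432 and 366 without rco1Δ replicates 2 and 3.

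The genes named for the largest differences between rco1Δ and pho23Δ included stress-induced genes and genes of ribosome assembly. YNL194C read 4.27, 5.24 and 5.42 in rco1Δ and 1.15, 2.02 and 2.44 in pho23Δ, with a wild-type range of 3.07 to 6.56 (rco1Δ minus pho23Δ 3.10 ± 0.81, SE; limma adjusted p = 0.0201). HSP12, a small membrane-associated stress protein, read 5.48, 6.55 and 5.32 against 2.45, 2.98 and 3.88 in pho23Δ, with a wild-type range of 4.23 to 7.64. OSI1, induced by oxidative stress, read 6.07, 6.10 and 5.94 against 3.39, 3.72 and 2.78, with a wild-type range of 4.35 to 5.51. In the other direction, RCL1, which acts in rRNA cleavage, fell to -2.92, -2.61 and -3.23 in rco1Δ and to -0.35, -0.86 and -0.89 in pho23Δ, with a wild-type range of -3.39 to -1.90. JJJ3, a J-domain protein of diphthamide synthesis, read -1.91, -2.14 and -3.43 in rco1Δ and -0.27, -0.60 and -0.33 in pho23Δ, with a wild-type range of -3.45 to -2.03. The rco1Δ values of HSP12, YNL194C and RCL1 lay within the wild-type range, those of OSI1 lay above it, and JJJ3 had 1 value above it.

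Gene groups of the stress response were compared next. The clusters below come from the supplement of the study, which drew them on these arrays, so they are not independent of them. The iESR cluster holds 25 strongly induced genes and is only a part of the iESR genes. Of its 24 genes tested, 0 were called between rco1Δ and wild type, where 0.561% of all genes were. Among them 0 had an unadjusted p under 0.05. The median difference was -0.39. Their mean induction was 3.08 to 3.97 over the wild-type arrays and 3.27 to 3.45 over the rco1Δ arrays, which overlapped. It was 1.98 to 2.57 in pho23Δ and 2.27 to 2.52 in rpd3Δ. Against the same wild-type arrays 15 of the 24 were called lower in pho23Δ (8.1% of all genes) and 13 in rpd3Δ (9.32% of all genes). Directly against pho23Δ, 5 were called higher in rco1Δ (3.25% of all genes) and 0 lower (4.54% of all genes), with a median of 0.98.

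Of 396 PS genes, 5 were called higher in rco1Δ than in wild type, where 0.445% of all genes were, and 0 lower, with a median difference of 0.22. In pho23Δ 209 were called higher than in wild type (9.67% of all genes), and in rpd3Δ 245 (13.6% of all genes). PS means ranged from -2.14 to -0.93 in wild type and from -1.63 to -1.02 in rco1Δ. They were -0.74 to -0.62 in pho23Δ and -0.59 to -0.48 in rpd3Δ, above every rco1Δ array. Directly against pho23Δ, 0 PS genes were called higher in rco1Δ and 76 lower, where 4.54% of all genes were, with a median of -0.69. Leaving out rco1Δ replicate 1 took the PS median against wild type from 0.22 to 0.02. In the subgroup of the study called heavily Rpd3p-dependent, 2 of 48 genes were called against wild type, with a median of 0.61, and 19 of 48 were lower than in pho23Δ, with a median of -1.32.

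Among hand-picked lists, 83 genes of the small subunit processome and rRNA processing had a median of 0.54 against wild type with 0 called, and 14 had an unadjusted p under 0.05, all higher. The largest member difference was that of the helicase gene ECM16, which did not pass, at 1.79 ± 0.43 (SE; limma adjusted p = 0.0564). Directly against pho23Δ 19 of the 83 were called lower in rco1Δ (4.54% of all genes) and 0 higher (3.25% of all genes). In the list of 22 genes of RNA polymerases I and III, RPC82 was called. The 132 RP genes had a median of 0.14 with 0 called and 1 at an unadjusted p under 0.05. Their mean spanned -3.04 to -1.0 in wild type and -2.63 to -0.95 in rco1Δ, and the median was -0.41 without rco1Δ replicate 1 and 0.45 without rco1Δ replicate 2. For RP genes the direction rested on which array was left out.

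Induced genes that the study classed as dependent on Rpd3p but not on the stress factors Msn2p and Msn4p (205 tested) had a median of -0.03 against wild type with 0 called, and 8 higher and 8 lower had an unadjusted p under 0.05. Of these genes 88 were called lower in pho23Δ than in wild type (8.1% of all genes). Directly against pho23Δ, 39 were called higher in rco1Δ (3.25% of all genes). Lists drawn from the heat shock and NaCl courses, with no H2O2 array, gave the following. Of 643 genes repressed less in rpd3Δ there, 10 were called higher and 1 lower in rco1Δ in H2O2 (0.445% and 0.116% of all genes), with a median of 0.26. In pho23Δ 280 were called higher than in wild type (9.67% of all genes). Of 696 genes induced less in rpd3Δ, 0 were called higher in rco1Δ and 1 lower, with a median of -0.16, against 220 called lower in pho23Δ (8.1% of all genes). Lists of proteasome, chaperone, trehalose and glycogen, thioredoxin and glutathione, iron, phosphate, cell wall, mating and cell cycle genes had 0 genes called between rco1Δ and wild type by limma, and 0 to 5 in each list had an unadjusted p under 0.05.

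Of the genes that the study followed singly, none tested was called against wild type. DDR2, a stress-induced gene, read 7.04, 6.46 and 6.29 in rco1Δ against a wild-type range of 6.11 to 7.20. GAR1, of box H/ACA RNPs, read -1.22, -3.46 and -2.81 against -3.84 to -1.46. RPL16A, a ribosomal protein gene, read -0.76, -3.28 and -3.34 against -3.68 to -1.06. For the latter pair the high value in each case was that of replicate 1. YGP1, XKS1, UBC5, HOR7 and YPR127W had differences of -0.52 to 0.52 and did not pass FDR 0.05. YPR127W was higher in rco1Δ than in pho23Δ, by 1.34 (limma adjusted p = 0.00291). None of the other subunits of Rpd3S and Rpd3L was called against wild type. EAF3, the partner of RCO1 in Rpd3S, read 0.90, 1.10 and 0.75 against 0.35 to 0.88, and SET2, the histone methyltransferase gene, read -0.76, -0.40 and -0.79 against -1.0 to -0.68. STE11, a kinase gene known for internal initiation in such mutants, read 1.49, 1.05 and 0.88 against 0.68 to 1.48.

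Over the course, list means of rco1Δ reached their extremes later than those of wild type. Single arrays stand for each strain at 10, 20, 40 and 60 min. The mean of the iESR cluster in wild type was 1.83, 3.20, 3.61, 3.61 and 2.54 at 10, 20, 30, 40 and 60 min. Its peak was at 30 to 40 min. That of rco1Δ was 0.86, 2.14, 3.27, 3.41 and 3.57, still rising at 60 min. That of pho23Δ was 1.07, 1.81, 1.98, 1.85 and 1.66. The rco1Δ mean was thus below that of pho23Δ at 10 min and above it from 20 min on.

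Repressed genes moved alike. The PS mean was -0.46, -1.26, -1.76, -1.61 and -0.66 in wild type, which had recovered most of its loss by 60 min. It was 0.00, -0.36, -1.02, -1.45 and -1.72 in rco1Δ, and -0.15, -0.41, -0.62, -0.67 and -0.68 in pho23Δ. RP genes gave -0.42, -1.51, -2.85, -3.08 and -2.07 in wild type and 0.37, -0.07, -0.95, -1.88 and -3.35 in rco1Δ. The oxidative defense cluster gave 1.48, 1.86, 1.74, 1.30 and 0.51 in wild type and 0.82, 1.53, 2.13, 2.09 and 1.78 in rco1Δ. In each list the rco1Δ course was behind at 10 and 20 min and past wild type at 60 min.

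**Figure D3:**
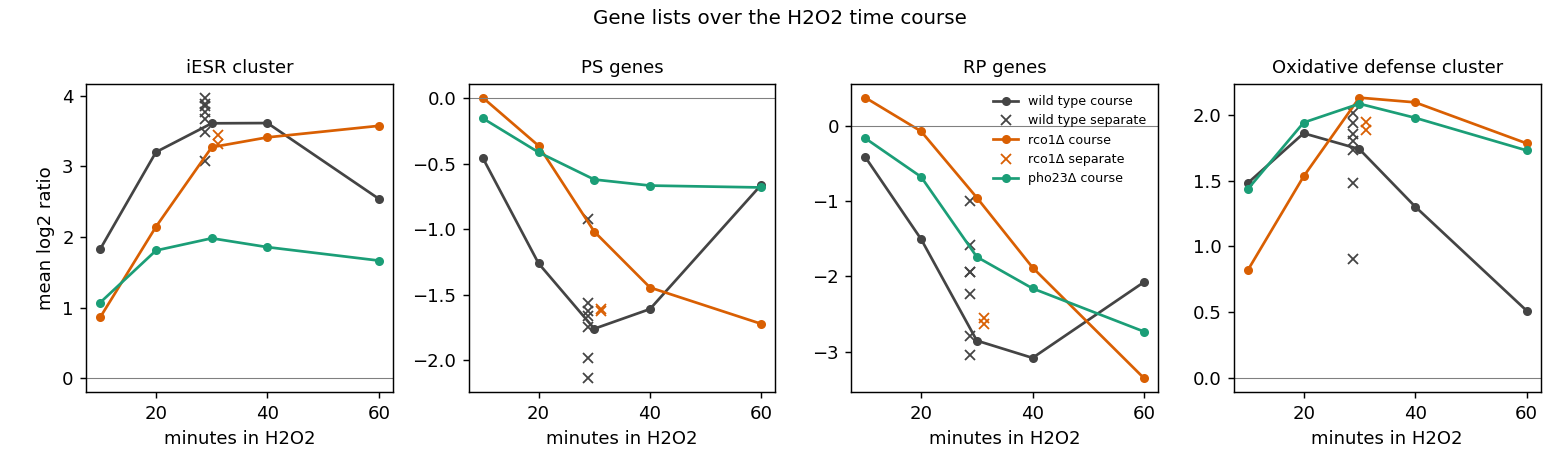
Mean log2 ratio of the iESR cluster, PS genes, RP genes and the oxidative defense cluster against minutes in H2O2. Lines are the time courses of wild type, rco1Δ and pho23Δ, and crosses are the separate 30 min arrays of wild type and rco1Δ. The rco1Δ line has its extreme at 60 min for the iESR cluster, PS and RP genes, where wild type has turned back. For the oxidative defense cluster the rco1Δ extreme is at 30 min.

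Whole arrays showed the same order. Across genes, the rco1Δ array of 20 min correlated best with wild type at 10 min (r = 0.845), that of 40 min with wild type at 20 min (0.908, against 0.900 at 30 min), and that of 60 min with wild type at 30 min (0.934). The separate rco1Δ samples of 30 min, replicates 2 and 3, did not lag in this way and correlated best with wild type at 30 min (r = 0.93 and 0.94). Their PS means lay within the wild-type range, but so did that of replicate 1. By the correlations the lag was seen in 1 culture series, with dyes opposite to those of wild type. Whether it belongs to the strain or to that series was not tested.

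By a limma F test over the 5 times, 14 of 4159 genes differed between the courses (0.337%), with 624 at an unadjusted p under 0.05. The count was 8 without rco1Δ replicate 2, 23 without wild-type replicate 3 and 54 without wild-type replicate 8. The 30 min term of this test was the difference over all 8 wild-type and 3 rco1Δ arrays at 30 min. SKT5, BOI1, MTC4, SKI2, PKH2 and RPC82, also called at 30 min, thus passed partly on the arrays that chose them. For these genes the test is not separate support. MTC4 and SKI2 were higher in rco1Δ at every time. SKI2 read 0.36, 0.44, 0.88, 1.00 and 1.48 in the rco1Δ course and -0.35, -0.32, 0.02, -0.09 and 0.02 in that of wild type, near 0 throughout. MTC4 read 0.37, 1.70, 2.96, 2.51 and 2.85 against 0.13, 1.10, 0.94, 0.79 and 0.16. Wild type lost its induction of MTC4 by 60 min and rco1Δ did not. SKT5 and BOI1 parted from wild type at 30 min. BOI1 read 0.05, 0.42, 1.35, 1.28 and 1.46 in rco1Δ and 0.19, 0.48, 0.40, 0.22 and -0.06 in wild type. SKT5 read -0.38, -0.31, 0.87, 1.22 and 1.64 against -0.54, -0.10, -0.01, 0.20 and 0.39.

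FLO8 and YLR419W lacked a value in wild type at 60 min and were not in this fit. FLO8 read -0.12, 0.79, 1.08, 1.10 and 1.36 in the rco1Δ course, and -0.76, -0.01, -0.37 and -0.58 in wild type from 10 to 40 min. YLR419W read -0.09, 0.04, 0.37, 0.52 and 0.86 in rco1Δ against -1.12, -1.39, -1.35 and -1.10. Both genes were above wild type at each of these times.

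The 23 genes chosen at 30 min were mostly higher in rco1Δ at the other times too. At 10 and 20 min this was not particular to them, as PS and RP genes also had medians above 0. Nor was it at 40 min, where the RP median was above that of the 23 genes. The difference was above 0 for 20 of 23 genes at 10 min, 18 of 21 at 20 min, 22 of 22 at 40 min and 14 of 19 at 60 min, with medians of 0.49, 0.60, 1.03 and 0.61. At 60 min the median of the 23 was -0.17 in wild type and 0.58 in rco1Δ. The median differences at 10, 20, 40 and 60 min were 0.48, 0.89, 0.15 and -1.03 for PS genes. They were 0.80, 1.42, 1.17 and -1.43 for RP genes, and 0.17, 0.03, 0.00 and 0.02 over all genes. At 60 min 2126 of the 4159 genes of the course fit were above 0, and that count was not made at the other times. These times share a strain's culture series with replicate 1 at 30 min.

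At single times each strain had 1 array outside 30 min, with opposite dyes, and the spread was taken from the 30 min arrays, so a call there compares 2 arrays and assumes that they vary like those of 30 min. On this basis limma called 1 gene at 10 min (0.024%), 6 at 20 min (0.144%), 9 at 30 min (0.216%), 0 at 40 min, with 359 genes at an unadjusted p under 0.05 there, and 43 at 60 min (1.03%). Of those at 60 min, 29 were higher in rco1Δ (0.697%) and 14 lower (0.337%). The aryl-alcohol dehydrogenase genes led: AAD4 was at 4.67 in rco1Δ and 0.68 in wild type, and AAD6 at 5.38 and 1.55. AAD14 was higher by 3.62. These near-identical paralogues may share signal. GPX2, a glutathione peroxidase, was at 4.25 against 1.31, and FLR1, a multidrug transporter, at 3.21 against 0.27. Each of these genes had a higher value in wild type at 30 min than at 60 min: the wild-type course array of 30 min read 3.66 for AAD4, 4.19 for AAD6, 3.78 for AAD14, 3.82 for GPX2 and 3.35 for FLR1. In pho23Δ at 60 min AAD4 read 4.77, GPX2 4.10 and FLR1 4.83.

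Among genes lower at 60 min, RLP24, of large subunit assembly, was at -3.66 in rco1Δ and -0.06 in wild type, and RPA12, a subunit of RNA polymerase I, at -3.29 and -0.30. OLE1, the fatty acid desaturase, was at -1.03 in rco1Δ and 1.84 in wild type. With dye as a covariate, 5 genes remained at 60 min, AAD4, AAD6, AAD14, GPX2 and YFL057C, all higher. Set against the pho23Δ course, which has the dyes of the rco1Δ course, 0 genes were called at 60 min by limma, with 547 at an unadjusted p under 0.05. In that comparison 251 were called at 30 min and 36 at 40 min. The count at 60 min was 10 without any one of wild-type replicates 5, 6 or 7, 14 without wild-type replicate 2, 21 without wild-type replicate 4, 25 without rco1Δ replicate 3 and 75 without wild-type replicate 8.

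**Figure D4:**
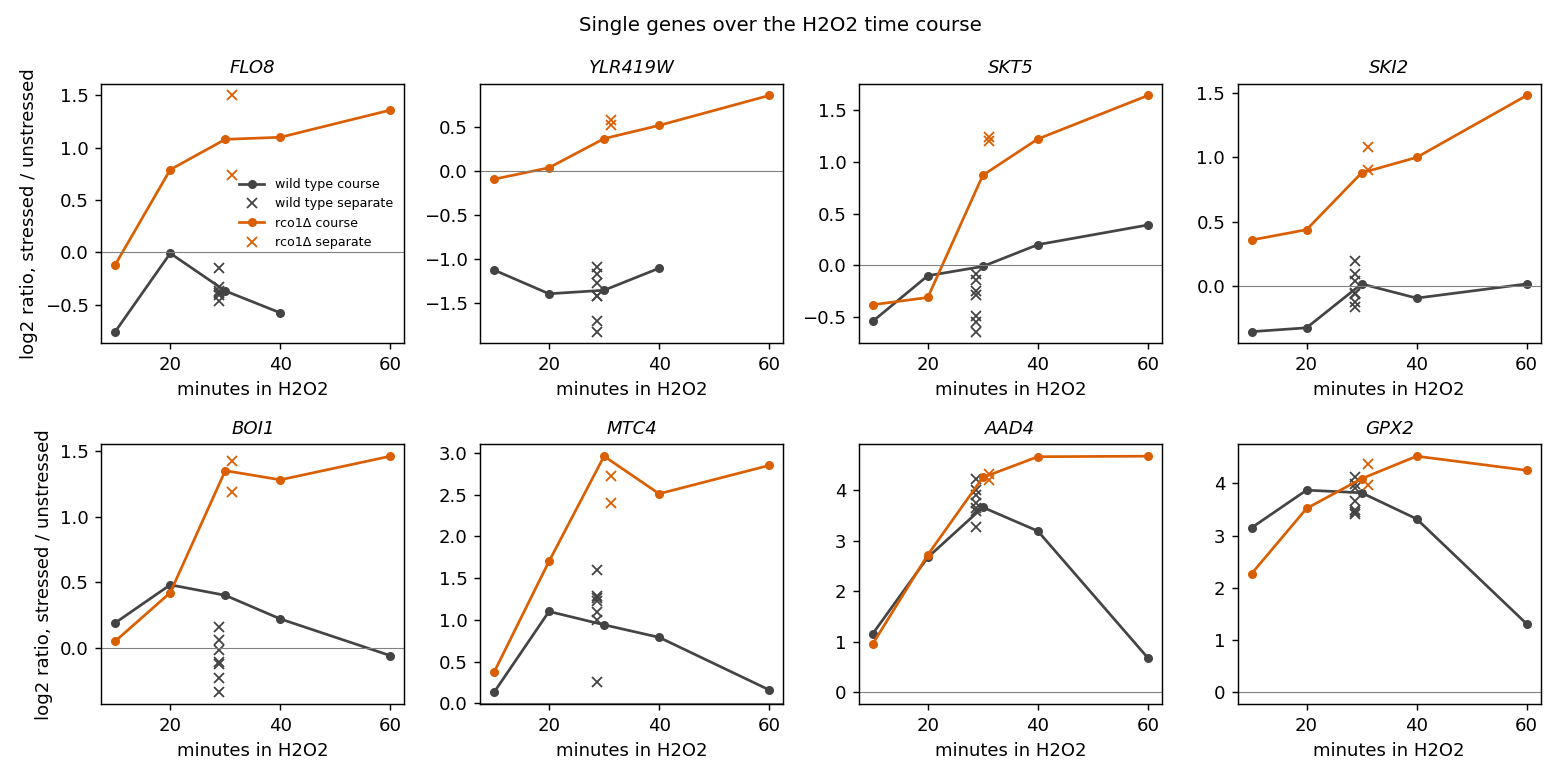
Log2 ratio against minutes in H2O2 for 8 genes, with lines for the wild-type and rco1Δ courses and crosses for the separate 30 min arrays. FLO8, YLR419W, SKT5, SKI2 and BOI1 lie above wild type in rco1Δ at 30 and 40 min, while AAD4 and GPX2 stay high in rco1Δ at 60 min, where wild type has fallen to 0.68 and 1.31.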

How the data were processed

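The authors hybridised 2-colour cDNA arrays, with dyes coupled to aminoallyl cDNA, and deposited 1 log2 ratio per gene and array. Array means lie near 0. Image analysis, background correction, the filter behind empty cells and the genome build are not given in the sources used here. Ratios were used as deposited, as stressed over unstressed. Groups came from the labels. Gene lists, members and the rule for named genes were chosen with earlier results of these data known. The rule named up to 12 genes in each direction at FDR 0.05 without overlap, course genes of one sign, extremes of each list and of rco1Δ minus pho23Δ, complex subunits and genes the study measured singly. The other genes called at 30 or 60 min are named to complete those counts. Strain means at 30 min were fitted with limma 3.58.1 (R 4.3.3) over 9 strains with 3 or more arrays (wild type, rco1, pho23, rpd3, ume6, msn2msn4 and msn2msn4rpd3, and NSY429 and the H4KQ mutant RMY491, which were grown in SC-Trp and lend only to the spread and the filter), on genes measured on at least 80% of these arrays, with Benjamini-Hochberg adjustment. The course was fitted over all wild-type and rco1Δ arrays in H2O2. All 30 min arrays entered its 30 min means, and its spread came from them. Scripts were tested on simulated data. Names matched for 5832 of 6297 genes. Alternatives were filters, centring, scaling, dye, replicate block, subsets of arrays and thresholds. Promoter motifs were not analysed here. The number of arrays limits the precision.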

Additional observations from a re-analysis of the deposited data

Results flagged for a closer look

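In 13 of 152 groups of 8 wild-type arrays or list means tested at 30 min, 1 array stood farther from the rest than Dixon's limit allows, where chance flags about 1 in 20. For single genes these values were MTF1 at 0.26, YKU70 at 3.32, ECM4 at 3.74, EAF3 at 0.35, UME6 at -0.64 and PRP2 at -0.96. For list means they were 0.76 in the class of the study that depended equally on Rpd3p and Msn2/4p, 1.38 in the class dependent on Msn2/4p alone, 2.86 for hydrophilins and small stress proteins, 1.25 for Yap1 and multidrug resistance genes, -0.57 for translation factors, -0.77 for genes repressed less in rpd3Δ in heat shock and NaCl, and -0.93 for PS genes.

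Over all 5173 genes tested, every wild-type array moved one way and every rco1Δ array the other at 21 (0.406%), and 9 of these were among the 29 genes called at FDR 0.05. Their rco1Δ minus wild-type differences were 1.89 for YLR419W, 1.46 for FLO8, 1.41 for SKT5, 1.30 for BNR1, 0.83 for POL4, 0.82 for VMS1, 0.73 for PRP2, 0.68 for TSC11 and -1.05 for ATG45.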

How the results depend on the processing

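The 29 genes called between rco1Δ and wild type at 30 min became 11 at FDR 0.01, 6 on genes measured on all arrays, 18 with 2 or more arrays in each strain, 14 with arrays scaled to one spread, 19 with dye as a covariate, 11 with only those strains in the fit, 5 with wild-type replicates 1 to 3 alone, and 12 without rco1Δ replicate 1 and wild-type replicate 8, a setting chosen after seeing the data. Leaving out 1 array gave 7 to 43. Against pho23Δ the 403 became 138 on genes measured on all arrays and 224 (72 higher, 152 lower) with scaled arrays, and 129 to 391 with 1 array left out. Against rpd3Δ the 659 became 228 on genes measured on all arrays and 336 to 557 with 1 array left out, and median centring gave 270 higher and 374 lower. The 2506 responding genes became 995 on genes measured on all arrays, 1447 from rco1Δ arrays alone and 1815 to 2140 with 1 array left out.

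For the course, 14 genes became 550 with scaled arrays, 7 with dye, 0 with wild-type replicates 1 to 3 alone (limma, 408 at an unadjusted p under 0.05), 132 against pho23Δ, a reference added after seeing the data, and 8 to 54 with 1 array left out. The 43 genes at 60 min became 28 with median centring, 164 with scaled arrays (75 higher, 89 lower), 5 with dye, 2 with wild-type replicates 1 to 3 alone, 0 against pho23Δ and 10 to 75 with 1 array left out. List medians with 1 array left out ran from -0.43 to -0.28 for the iESR cluster, 0.02 to 0.33 for PS genes and -0.41 to 0.45 for RP genes. The cause of these changes was not tested. None of the 29 genes called at 30 min changed sign.

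The replicate numbers did not pair the rco1Δ samples with those of wild type: deviations of like-numbered arrays correlated at -0.45, -0.04 and 0.08. With pho23Δ these correlations were -0.04, 0.42 and 0.12, and with rpd3Δ 0.26, 0.03 and 0. With the number as a replicate block over replicates 1 to 3, 9 genes were called against wild type, 7 of them among the 29, 481 against pho23Δ and 699 against rpd3Δ. The course had 1 array per time and allowed no block.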

Other observations

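A set of 63 reading frames with no symbol in the name table was picked out after the plot of differences against gene length had been seen. They are the unnamed frames of the 4 commonest lengths, 1317, 1323, 5269 and 5314 bp. At 30 min 61 of 63 had a rco1Δ minus wild-type difference above 0, with a median of 0.57. By limma 0 were called, and 19 had an unadjusted p under 0.05, all higher. Their mean ranged from -0.85 to 0.35 over the wild-type arrays, with a median of -0.24, and was 0.31, 0.91 and -0.35 on the rco1Δ arrays, so the strains overlapped. The median difference from the same wild-type arrays was 0.04 in pho23Δ and -0.22 in rpd3Δ. Reading frames of equal length can be copies of one sequence that share signal, and whether these are was not tested.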
